A study of Homo sapiens with 4 samples.

Results

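The genes examined were 55 genes of transport between the endoplasmic reticulum (ER) and the Golgi apparatus, chosen by name and not by any measured value: 12 of the COPII coat, 8 of the COPI coat, 4 ARF GTPases, 12 TRAPP subunits, 9 of the translocon and its associated TRAP complex, 6 cargo and retrieval receptors, and 4 SNAREs or tethers. All 55 were found among the 62443 gene identifiers of the table. The cells were EA.hy926, a human endothelial hybrid line derived from umbilical vein and a lung carcinoma, and all 4 libraries came from it. Of these libraries, 2 were labelled miR-NC (a negative control miRNA) and 2 were labelled miR-187 (overexpressed miR-187), numbered miR-NC-1, miR-NC-2, miR-187-1 and miR-187-2, and the comparison asks how miR-187 alters the transcriptome of endothelial cells. The study's general methods describe lipid transfection of a synthetic miRNA and give a collection time for transfections in general, no dose was found for these libraries, and nothing says that the libraries of a group came from separate cultures, so the p-values measure the spread between these libraries only, which may be technical.

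Newly made secretory and membrane proteins enter the ER through the SEC61 translocon and are packed at ER exit sites into vesicles coated with COPII. TRAPP complexes switch on Rab GTPases so that these vesicles can be tethered, SNAREs drive fusion, and vesicles coated with COPI carry receptors and escaped ER proteins back. ARF GTPases place the COPI coat on Golgi membranes. In endothelium the same route exports von Willebrand factor, matrix proteins and surface receptors.

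The miRNA under study acts through bases 2 to 8 of its mature strand, the seed, which pairs with complementary letters in the 3′ untranslated region (UTR) of a transcript. The mature strand of miR-187-3p is shown with its seed in capitals, from RefSeq (GRCh38.p14, chr18:35904835-35904856, minus strand), because the searches of the transport genes below start from it. Its letters equal those of the mimic in the study's oligonucleotide list.
miR-187-3p: uCGUGUCUuguguugcagccgg
The gene of its precursor, MIR187, was listed at 0 FPKM in all 4 libraries, and a delivered mature miRNA is not measured by mRNA libraries, so the table holds no check of the overexpression.

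Each value is an FPKM, the fragments of a gene per kilobase of transcript, scaled to the mapped fragments of the library. The FPKM of a library summed to between 736702 and 763221, while the genes at 1 FPKM or more numbered 8098 and 8868 in the miR-NC libraries and 7290 and 7189 in the miR-187 libraries. The 100 most abundant genes held 64.2% and 61.7% of the FPKM in the miR-NC libraries and 69.8% and 70.2% in the miR-187 libraries. Read totals were not used here, so the depth is unknown. Among the endothelial markers, ESAM and CDH5 were present, while CLDN5 was listed at 0 in every library. VWF did not exceed 0.077 FPKM and KDR did not exceed 0.145 FPKM, and PECAM1 was not found by its symbol. The summed level of the 9 markers measured was 127 and 156 FPKM with miR-NC against 69.3 and 68.0 FPKM with miR-187. Most of each sum was ESAM, at 105 and 124 FPKM with miR-NC against 56.1 and 55.6 FPKM with miR-187. The epithelial markers summed to 4766 to 5192 FPKM, mostly KRT8, KRT18 and KRT7, with CDH1 and ESRP1 at 0. The fibroblast markers did not exceed 0.50 FPKM in sum and the leukocyte markers, with PTPRC and CD3E at 0, summed to 46.2 to 74.1 FPKM. The part of the lower endothelial sum in the results below was not tested.

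Of the 55 transport genes, 46 reached 1 FPKM in at least 2 libraries and were tested. As deposited, 4 of them were higher with miR-187 (8.70%), namely TMED9, SEC13, COPE and TRAPPC5, where 1.49% of all 8196 tested genes were higher by the same rule, an adjusted p from limma under 0.05. TRAPPC5 reached the level for testing only through the miR-187 libraries, so its place in this count is no support for a difference. Another 13 were lower (28.3%), where 27.3% of all tested genes were lower, so the share of lower transport genes was near the background. The lower genes were ARF1, ARF3, ARF4, TRAPPC3, TRAPPC4, TRAPPC6B, SEC61A1, SEC61B, SEC61G, SEC62, COPB2, SEC16A and PREB. The remaining 29 did not pass. The tested transport genes were more abundant than the background, with a median of 13.7 and 17.3 FPKM in the miR-NC libraries. For all tested genes that median was 4.83 and 5.98 FPKM, and the shares were not matched for level. The 4 higher genes became 1 without miR-187-1 and 2 without miR-187-2, and the 13 lower genes became 7 without miR-NC-2 and 6 without miR-187-2. The median log2 fold change of the tested transport genes was -0.37, beside -0.39 for all tested genes, and 37 of 46 lay below 0, beside 85.2% of all tested genes. Both miR-187 libraries lay above both miR-NC libraries for 5 of the 46 (5.93% of all tested genes did so) and below them for 28 (65.4% of all tested genes). In bulk RNA, a smaller amount per cell and fewer cells of a kind cannot be told apart.

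Since most tested genes had a lower level with miR-187, each change was also given after median-of-ratios scaling, with a median of all tested genes at -0.01 in place of -0.39. Scaled in this way, 6 transport genes were higher (13.0%, beside 4.67% of all tested genes): TMED9, SEC13, COPE, TMED10, TRAPPC2L and COPZ1. None was lower (3 at an unadjusted p under 0.05 in limma), beside 3.70% of all tested genes. The 3 genes higher on both scales were TMED9, SEC13 and COPE. With each library left out in turn, 5 genes passed every time as deposited, TMED9 among the higher and SEC61G, ARF1, TRAPPC4 and TRAPPC3 among the lower, while after scaling TMED9, SEC13 and COPE did. The count after scaling was 3 higher without miR-NC-2 and 9 higher and 2 lower without miR-187-1.

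**Figure D1:**
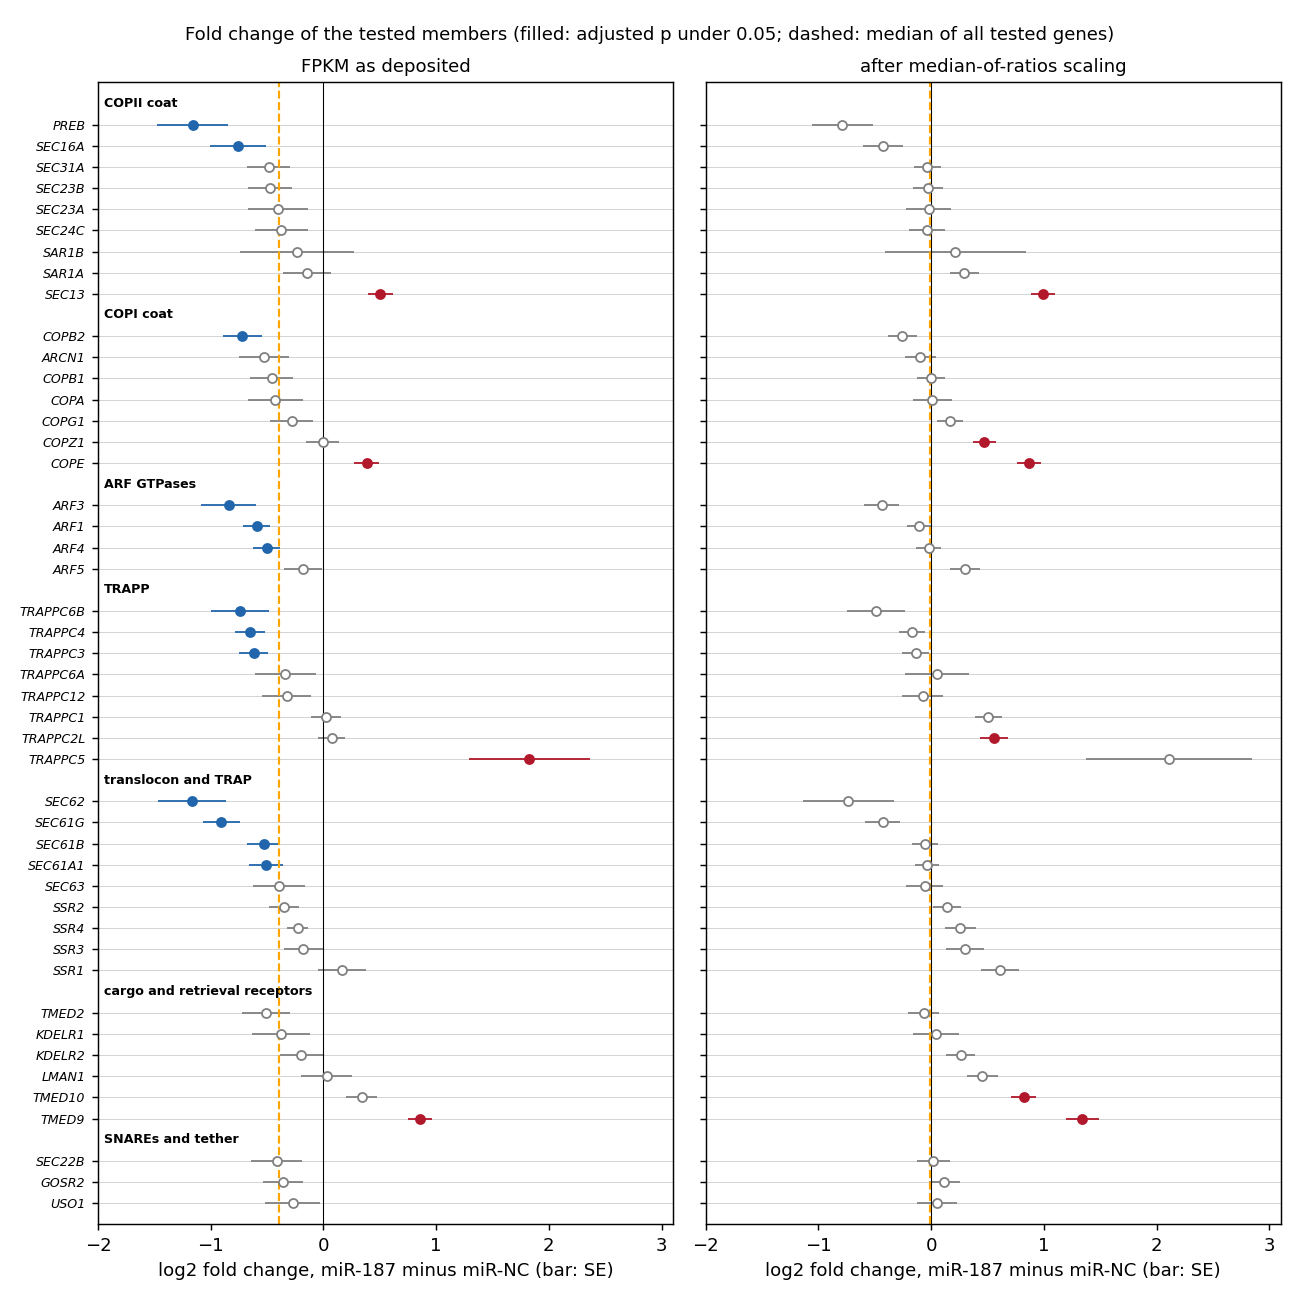
Log2 fold change (miR-187 minus miR-NC, on the log2(FPKM + 1) scale) of the 46 tested transport genes by functional group, as deposited (left) and after median-of-ratios scaling (right); bars are standard errors, filled points have an adjusted p under 0.05 and the dashed line is the median of all tested genes. TMED9, SEC13 and COPE lie to the right of 0 with filled points in both panels, and the 13 filled points to the left of 0 in the left panel are open in the right panel.

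In FPKM, which is a level per transcript length, the genes spanned a wide range. SSR4, a subunit of TRAP, was the most abundant with 495 FPKM ± 1.27 (SD, n = 2) in the miR-NC libraries, and TRAPPC8 the least with 0.186 FPKM ± 0.0905. Together the 55 genes summed to 2238 and 2432 FPKM with miR-NC and to 2228 and 2159 FPKM with miR-187. Both miR-187 sums lay below both miR-NC sums, although the miR-NC libraries differed from each other by more than the nearest libraries of the groups did.

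**Figure D2:**
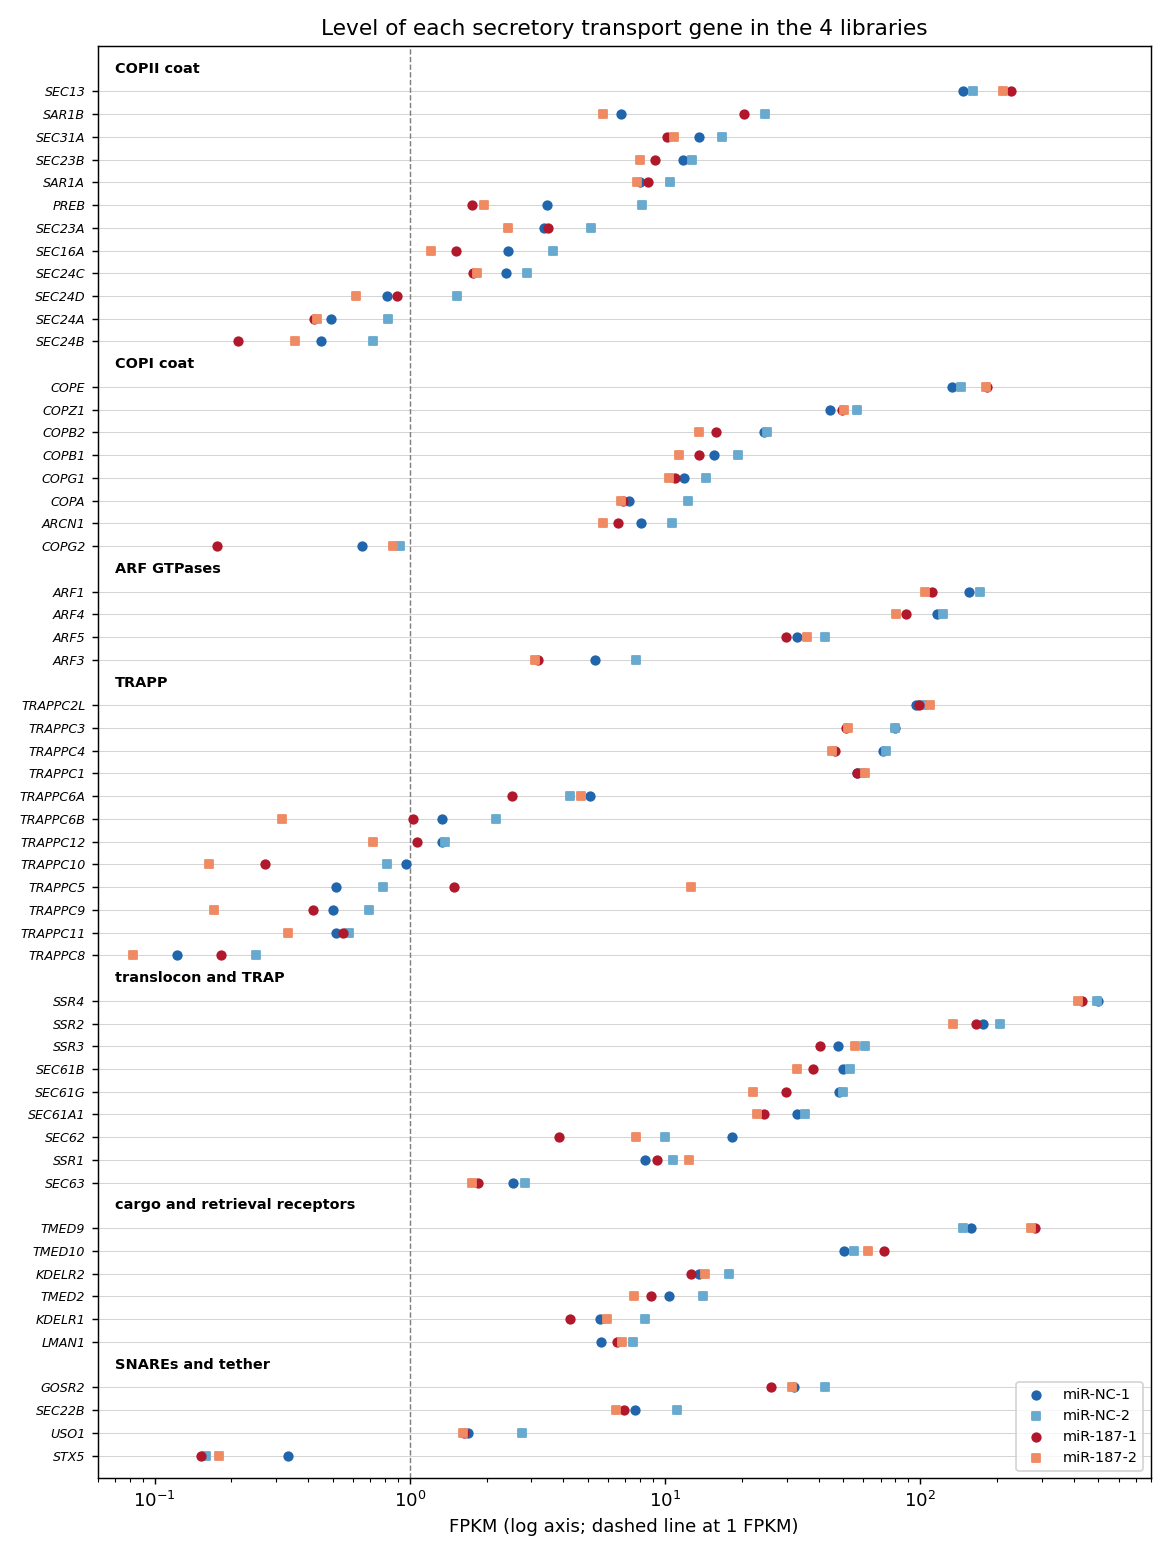
FPKM (log axis) of each of the 55 transport genes in the 4 libraries, arranged by functional group and ordered by level; each point is 1 library and the dashed line marks 1 FPKM. The miR-187 points of TMED9 lie at 281 and 273 FPKM and those of miR-NC at 159 and 147 FPKM, and the 9 genes that were not tested lie mostly to the left of the dashed line.

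The cargo and retrieval receptors held TMED9, the transport gene with the smallest adjusted p. TMED9, a p24 protein that cycles between the ER and Golgi and takes part in packing cargo into COPII vesicles, measured 159 and 147 FPKM in the miR-NC libraries and 281 and 273 FPKM in the miR-187 libraries. The groups did not overlap, and the ratio of their means was 1.81. TMED9 had a log2 fold change of 0.85 ± 0.11 (SE, n = 2 against 2, limma adjusted p = 0.000264) as deposited and 1.34 ± 0.15 after scaling (adjusted p = 0.0101), and it passed with each library left out on either scale. TMED9 lies on chr5:177592158-177596124 (GRCh38, plus strand).

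TMED10, another p24 protein and a partner of TMED9 in p24 complexes, measured 50.3 and 55.3 FPKM in miR-NC cells against 71.9 and 62.4 FPKM in miR-187 cells. Its groups did not overlap either, with a log2 fold change of 0.34 ± 0.14 that missed the threshold as deposited (adjusted p = 0.0784). After scaling TMED10 was higher by 0.82 ± 0.11 on the log2 scale (adjusted p = 0.0159), and without miR-NC-2 it missed the threshold on that scale (adjusted p = 0.0688). TMED2, the third p24 gene listed, measured 10.4 and 14.1 FPKM in miR-NC cells against 8.82 and 7.56 FPKM in miR-187 cells, and did not pass (adjusted p = 0.0836). Among the p24 genes TMED9 lay above TMED10 and TMED10 above TMED2 in every library.

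The other 3 receptors did not pass on either scale. KDELR1 and KDELR2, which retrieve ER proteins that carry a KDEL ending, had log2 fold changes of -0.38 and -0.20, and LMAN1, the lectin ERGIC-53 that carries coagulation factors out of the ER, had 0.03. All 3 overlapped between the groups. In sum the 6 receptors measured 244.3 and 249.9 FPKM in miR-NC cells against 385.4 and 369.9 FPKM in miR-187 cells, a difference that TMED9 made up for the most part. No receptor was lower on either scale.

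In the COPII coat, SEC13 was higher on both scales, and its cage partner SEC31A did not pass on either. SEC13 forms the outer cage of the coat together with SEC31A and is also part of the nuclear pore. It measured 147 and 162 FPKM in miR-NC cells against 227 and 211 FPKM in miR-187 cells. The groups did not overlap, and the log2 fold change was 0.50 ± 0.11 as deposited (adjusted p = 0.00662) and 0.99 ± 0.11 after scaling (adjusted p = 0.00988). Without miR-187-1 it missed the threshold as deposited (adjusted p = 0.0534), whereas it passed after scaling with each library left out. SEC31A, in contrast, measured 13.7 and 16.8 FPKM in miR-NC cells against 10.2 and 10.9 FPKM in miR-187 cells, with a log2 fold change of -0.49 ± 0.19 that did not pass (adjusted p = 0.0703) and of -0.03 after scaling.

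PREB and SEC16A were the COPII genes that were lower as deposited, and neither passed after scaling. PREB, also called SEC12, loads SAR1 with GTP and so starts coat assembly. It measured 3.44 and 8.14 FPKM in miR-NC cells against 1.75 and 1.96 FPKM in miR-187 cells, so that the miR-NC libraries differed from each other more than the miR-187 libraries did. PREB had a log2 fold change of -1.16 ± 0.31 (adjusted p = 0.0170), and -0.79 ± 0.27 after scaling (adjusted p = 0.119). It missed the threshold without miR-NC-2 (adjusted p = 0.111) and without miR-187-1 (adjusted p = 0.0521). SEC16A, the scaffold of ER exit sites, measured 2.43 and 3.64 FPKM in miR-NC cells against 1.52 and 1.21 FPKM in miR-187 cells. Its log2 fold change was -0.76 ± 0.25 (adjusted p = 0.0385), and -0.43 ± 0.18 after scaling (adjusted p = 0.178). SEC16A passed only while both miR-187 libraries and miR-NC-2 were kept, with an adjusted p of 0.194 without miR-NC-2, 0.112 without miR-187-1 and 0.266 without miR-187-2.

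The inner coat did not pass on either scale. SEC23A and SEC23B, which make SAR1 split GTP, had log2 fold changes of -0.40 and -0.47, and SEC24C, which binds cargo, had -0.37. After scaling the 3 lay between -0.04 and -0.02. Of the 4 SEC24 genes only SEC24C reached the filter, at a mean of 2.63 FPKM in the miR-NC libraries against 1.17 FPKM for SEC24D, 0.659 FPKM for SEC24A and 0.584 FPKM for SEC24B. SAR1A had a log2 fold change of -0.14. SAR1B, the other SAR1 gene, differed more within the groups than between them, at 6.71 and 24.8 FPKM in miR-NC cells against 20.3 and 5.73 FPKM in miR-187 cells. SAR1B shares exon positions with SEC24A on the opposite strand, and SEC24A did not exceed 0.825 FPKM.

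In the COPI coat, COPE was higher on both scales and COPB2 was lower as deposited only. COPE, the epsilon subunit of the outer layer, measured 134 and 145 FPKM in miR-NC cells against 183 and 182 FPKM in miR-187 cells, with no overlap between the groups. COPE differed by a log2 fold change of 0.38 ± 0.11 as deposited (adjusted p = 0.0230) and 0.87 ± 0.11 after scaling (adjusted p = 0.0140). As deposited it missed the threshold without miR-187-1 (adjusted p = 0.124) and without miR-187-2 (adjusted p = 0.131), and after scaling it passed with each library left out.

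COPB2, the beta-prime subunit that binds COPE's partner COPA in the outer layer, measured 24.4 and 25.1 FPKM in miR-NC cells against 15.8 and 13.6 FPKM in miR-187 cells. It was lower as deposited by a log2 fold change of -0.72 ± 0.17 (adjusted p = 0.00976) and not after scaling (-0.25 ± 0.13, adjusted p = 0.256). Without miR-187-2 it missed the threshold as deposited (adjusted p = 0.140). COPB2 shares exon positions on the opposite strand with MRPS22, which measured 8.35 and 12.2 FPKM in miR-NC cells against 6.08 and 6.31 FPKM in miR-187 cells. The sources used give no strand setting of the authors' counting, so the part of these reads in COPB2 was not tested.

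COPZ1, the zeta subunit of the inner layer, overlapped between the groups with 44.4 and 56.6 FPKM against 49.3 and 50.5 FPKM, and its direction depended on the scale, with a log2 fold change of -0.01 ± 0.15 as deposited (adjusted p = 0.973) and 0.47 ± 0.10 after scaling (adjusted p = 0.0424). After scaling COPZ1 missed the threshold without miR-NC-1 (adjusted p = 0.129), miR-NC-2 (0.105) or miR-187-2 (0.110). The other tested COPI genes, COPA, COPB1, COPG1 and ARCN1, had log2 fold changes between -0.53 and -0.28 as deposited and between -0.09 and 0.17 after scaling, and none passed on either scale. The mRNA levels per length of COPI genes lay far apart, with a mean in the miR-NC libraries of 9.35 FPKM for ARCN1, 9.76 FPKM for COPA, 13.2 FPKM for COPG1, 17.5 FPKM for COPB1, 50.5 FPKM for COPZ1 and 139 FPKM for COPE. The coat holds its protein subunits in equal number, which mRNA FPKM does not measure. COPG2, the second gamma subunit gene, stayed below the filter at a mean of 0.783 FPKM.

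Of the ARF GTPases, 3 of 4 were lower as deposited, beside 27.3% of all tested genes, and none passed in either direction after scaling, which left their median log2 fold change at -0.06 instead of -0.55. ARF1, the main recruiter of COPI, measured 155 and 172 FPKM in miR-NC cells against 111 and 105 FPKM in miR-187 cells. ARF1 was lower by a log2 fold change of -0.59 ± 0.12 (adjusted p = 0.00386), passed with each library left out as deposited, and came after scaling to -0.11 ± 0.10 (adjusted p = 0.536). ARF4 measured 116 and 123 FPKM in miR-NC cells against 88.0 and 80.6 FPKM in miR-187 cells. ARF4 had a log2 fold change of -0.50 ± 0.12 (adjusted p = 0.0103) and -0.02 after scaling (adjusted p = 0.925), and without miR-187-2 it missed the threshold as deposited (adjusted p = 0.107). ARF3, a close relative of ARF1 at a much lower level, measured 5.31 and 7.72 FPKM in miR-NC cells against 3.19 and 3.097 FPKM in miR-187 cells. Its log2 fold change was -0.84 ± 0.25 (adjusted p = 0.0246) and -0.44 ± 0.16 after scaling (adjusted p = 0.130). ARF3 missed the threshold without miR-NC-2 (adjusted p = 0.0982), miR-187-1 (0.143) or miR-187-2 (0.182). ARF5 overlapped between the groups and had a log2 fold change of -0.18 (adjusted p = 0.424).

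Of the TRAPP genes, the core subunits TRAPPC1, TRAPPC2L, TRAPPC3 and TRAPPC4 lay well above the filter, and the accessory subunits lay near or below 1 FPKM. TRAPPC3 and TRAPPC4, both in the core that every TRAPP complex shares, were lower as deposited, and their libraries lay close together within each group. TRAPPC3 measured 80.1 and 79.8 FPKM in miR-NC cells against 51.4 and 52.0 FPKM in miR-187 cells, a log2 fold change of -0.62 ± 0.13 (adjusted p = 0.00481). TRAPPC4 measured 71.9 and 73.6 FPKM in miR-NC cells against 46.5 and 45.3 FPKM in miR-187 cells, a log2 fold change of -0.65 ± 0.13 (adjusted p = 0.00423). Both passed with each library left out as deposited, and neither did after scaling, where the values were -0.14 (adjusted p = 0.506) and -0.17 (adjusted p = 0.373). TRAPPC4 shares exon positions on the opposite strand with the ribosomal protein gene RPS25, which measured 127 and 136 FPKM in miR-NC cells against 82.8 and 67.3 FPKM in miR-187 cells, and TRAPPC3 shares some with MAP7D1, which did not exceed 3.86 FPKM. The part of these reads in the TRAPP values was not tested.

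TRAPPC1 and TRAPPC2L, of the same core, did not pass as deposited. TRAPPC2L measured 96.3 and 101 FPKM in miR-NC cells against 98.7 and 110 FPKM in miR-187 cells, a log2 fold change of 0.07 ± 0.12 (adjusted p = 0.653) with overlapping groups. After scaling TRAPPC2L was higher by 0.56 ± 0.12 (adjusted p = 0.0451), and this call was lost without miR-NC-1 (adjusted p = 0.0689), miR-NC-2 (0.147) or miR-187-2 (0.122). TRAPPC1 came to 0.03 as deposited and to 0.51 after scaling (adjusted p = 0.0539). TRAPPC3 and TRAPPC4 were thus lower on a scale on which TRAPPC1 and TRAPPC2L stayed between 0.03 and 0.07.

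TRAPPC6B, one of a pair of alternative core subunits, measured 1.34 and 2.18 FPKM in miR-NC cells against 1.03 and 0.316 FPKM in miR-187 cells. TRAPPC6B had a log2 fold change of -0.74 ± 0.26 (adjusted p = 0.0483), and -0.49 ± 0.26 after scaling (adjusted p = 0.270). It missed the threshold without miR-NC-1 (adjusted p = 0.0603), miR-NC-2 (0.330) or miR-187-2 (0.400). TRAPPC6A, the alternative subunit, measured 5.11 and 4.23 FPKM in miR-NC cells against 2.51 and 4.70 FPKM in miR-187 cells and did not pass (adjusted p = 0.343).

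TRAPPC5, another core subunit, rested on a single library. It measured 0.513 and 0.785 FPKM with miR-NC, 1.49 FPKM in miR-187-1 and 12.6 FPKM in miR-187-2. The log2 fold change was 1.83 ± 0.54 (adjusted p = 0.0250) as deposited and 2.11 ± 0.73 after scaling (adjusted p = 0.120), and the gene passed the filter only through the group where it was high. Without miR-187-1 or miR-187-2 it was no longer tested, and without miR-NC-1 or miR-NC-2 the adjusted p was 0.103 or 0.134. An annotated gene named only by its identifier, ENSG00000269711, shares exon positions with TRAPPC5 on the same strand of chromosome 19. That gene was at 50.2 and 50.5 FPKM with miR-NC, at 65.4 FPKM in miR-187-1 and listed at 0 in miR-187-2, the library in which TRAPPC5 was at 12.6 FPKM. How reads were divided between the overlapping genes was not tested.

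**Figure D3:**
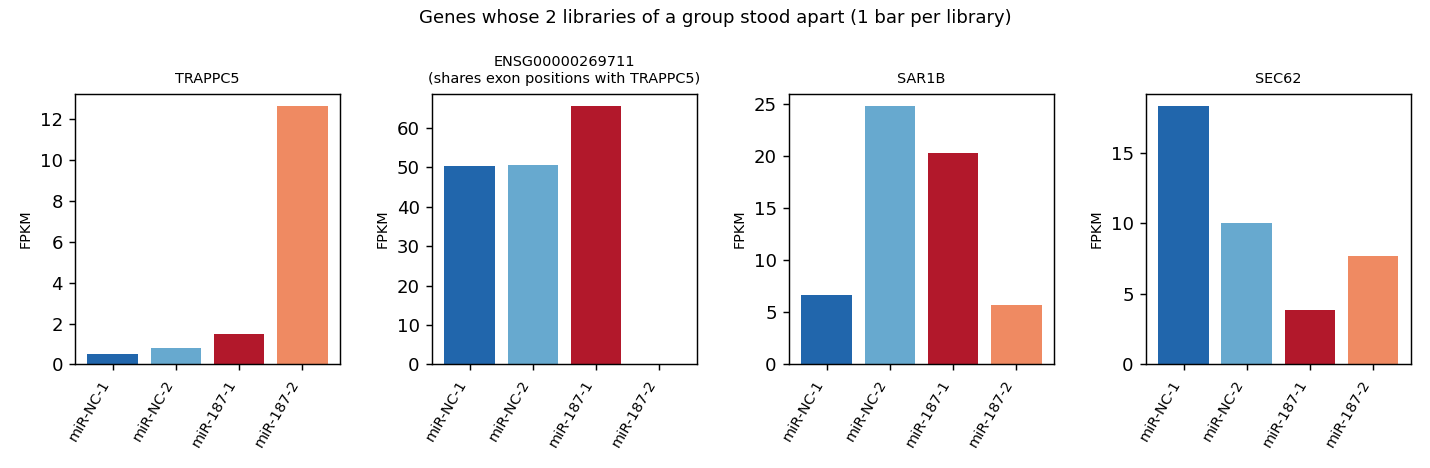
FPKM of TRAPPC5, of the gene that shares its exon positions, of SAR1B and of SEC62, with 1 bar per library and each axis starting at 0. TRAPPC5 is at 12.6 FPKM in miR-187-2, where its overlapping gene is listed at 0, and the libraries of SAR1B differ more within the groups than between them.

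The accessory TRAPP subunits were low. TRAPPC12, of the TRAPPIII form, was tested and did not pass (log2 fold change -0.33, adjusted p = 0.254). TRAPPC8 and TRAPPC11 of the same form and TRAPPC9 and TRAPPC10 of the TRAPPII form stayed below the filter, with TRAPPC10 highest at 0.964 and 0.812 FPKM in miR-NC cells against 0.270 and 0.164 FPKM in miR-187 cells. The groups of TRAPPC10 did not overlap.

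Of the translocon and TRAP genes, 4 of 9 were lower as deposited, beside 27.3% of all tested genes, and none after scaling. The 4 were SEC61A1, SEC61B, SEC61G and SEC62. SEC61G, the gamma subunit that clasps the channel, measured 48.27 and 49.97 FPKM in miR-NC cells against 29.9 and 22.2 FPKM in miR-187 cells. The log2 fold change was -0.91 ± 0.17 (adjusted p = 0.00260), which passed with each library left out, and -0.43 ± 0.15 after scaling (adjusted p = 0.129). SEC61A1, the pore itself, measured 32.9 and 35.4 FPKM in miR-NC cells against 24.4 and 23.0 FPKM in miR-187 cells, a log2 fold change of -0.51 ± 0.15 (adjusted p = 0.0281). SEC61B, the beta subunit, measured 49.7 and 53.4 FPKM in miR-NC cells against 38.0 and 33.0 FPKM in miR-187 cells, a log2 fold change of -0.53 ± 0.15 (adjusted p = 0.0187). After scaling SEC61A1 and SEC61B came to -0.04 (adjusted p = 0.860) and -0.05 (adjusted p = 0.802), near the median of all tested genes. As deposited SEC61A1 missed the threshold without miR-NC-2 (adjusted p = 0.0798), miR-187-1 (0.129) or miR-187-2 (0.229), and SEC61B without miR-NC-2 (0.0711) or miR-187-2 (0.212). SEC61A1 shares exon positions on the opposite strand with RUVBL1, at 34.9 to 42.9 FPKM, and the part of these reads was not tested.

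SEC62, which helps short precursors into the channel after translation and serves as a receptor for ER turnover, measured 18.28 and 10.02 FPKM in miR-NC cells against 3.86 and 7.69 FPKM in miR-187 cells. The groups did not overlap, although the libraries of each group lay well apart. SEC62 had a log2 fold change of -1.17 ± 0.30 (adjusted p = 0.0147) as deposited, close to that of PREB, and -0.73 ± 0.40 after scaling (adjusted p = 0.287). It missed the threshold without miR-NC-1 (adjusted p = 0.0826) and without miR-187-1 (adjusted p = 0.117). SEC63, its partner, had a log2 fold change of -0.39 and did not pass (adjusted p = 0.204).

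None of the 4 TRAP genes, which help certain signal sequences open the channel, passed on either scale. SSR4 measured 496 and 494 FPKM in miR-NC cells against 430.0 and 415 FPKM in miR-187 cells, a log2 fold change of -0.23 ± 0.09 with no overlap (adjusted p = 0.0781). SSR2 had -0.35 (adjusted p = 0.0604), SSR3 had -0.18 (adjusted p = 0.435) and SSR1 had 0.16 (adjusted p = 0.568). After scaling the 4 lay between 0.14 and 0.61, with SSR1 the highest (adjusted p = 0.0747).

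SEC61A1 and SEC62 were also the only transport genes with letters in the 3′ UTR that pair with the seed. Annotated 3′ UTRs (GENCODE 29, GRCh38) were searched on the transcript strand for AGACACG, which pairs with the whole seed, for the form that lacks its first letter (GACACG), and for either followed by an A (the longest being AGACACGA). A match was found in 2 of 55 transport genes (3.64%) and in 480 of 7052 tested genes with such a UTR (6.81%). Both were the shortest form of 6 letters, and no transport gene held a match of 7 or 8 letters, beside 3.15% of the tested genes. The matches are shown in capitals on the transcript strand.
SEC61A1 (chr3:128070474-128070479, plus strand): gtcatcactgGACACGtctcctcgca
SEC62 (chr3:169996052-169996057, plus strand): gcgtaaaaagGACACGtttatagtat
The other 11 of the 13 lower transport genes held no match. A match is a description of the letters, and no letters were tested for an effect.

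The SNAREs and the tether did not pass on either scale. SEC22B and GOSR2, SNAREs of the ER to Golgi step, had log2 fold changes of -0.41 (adjusted p = 0.173) and -0.36 (adjusted p = 0.132), and USO1, the tether p115, had -0.27 (adjusted p = 0.399). After scaling the 3 lay between 0.02 and 0.12. STX5, the Golgi SNARE that pairs with GOSR2, lay below the filter with 0.152 to 0.335 FPKM.

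Ratios between 2 genes of the same library do not depend on how libraries are scaled, and a set of them was computed for partner subunits. The pairs were chosen after their values were seen, so they are a description. SEC13 over SEC31A was 10.8 and 9.61 in the miR-NC libraries against 22.2 and 19.5 in the miR-187 libraries. COPE over COPB2 was 5.49 and 5.77 in the miR-NC libraries against 11.5 and 13.4 in the miR-187 libraries. In both coats, the ratio between cage partners lay higher in both miR-187 libraries than in either miR-NC library. TMED9 over TMED2 was 15.4 and 10.5 in the miR-NC libraries against 31.9 and 36.1 in the miR-187 libraries, and TMED9 over TMED10 was 3.16 and 2.66 against 3.91 and 4.37. In TRAPP, TRAPPC3 over TRAPPC1 was 1.41 and 1.36 in the miR-NC libraries against 0.911 and 0.853 in the miR-187 libraries, and TRAPPC4 over TRAPPC2L was 0.746 and 0.726 against 0.471 and 0.413. SEC61B over SEC61A1 overlapped, at 1.51 and 1.51 against 1.55 and 1.44, whereas SEC61G over SEC61A1 was 1.47 and 1.41 against 1.22 and 0.966. The ratio of the beta subunit to the pore thus overlapped between the groups and that of the gamma subunit to the pore did not. SEC23B over SEC23A overlapped as well, at 3.49 and 2.48 in the miR-NC libraries against 2.61 and 3.30 in the miR-187 libraries. COPE over COPA, SEC61B over SEC61G and ARF1 over ARF4 were also computed and did not overlap. How often the ratios of other gene pairs overlap was not computed. A ratio that differs between the groups shows that 2 genes differed unequally, not which of them did.

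**Figure D4:**
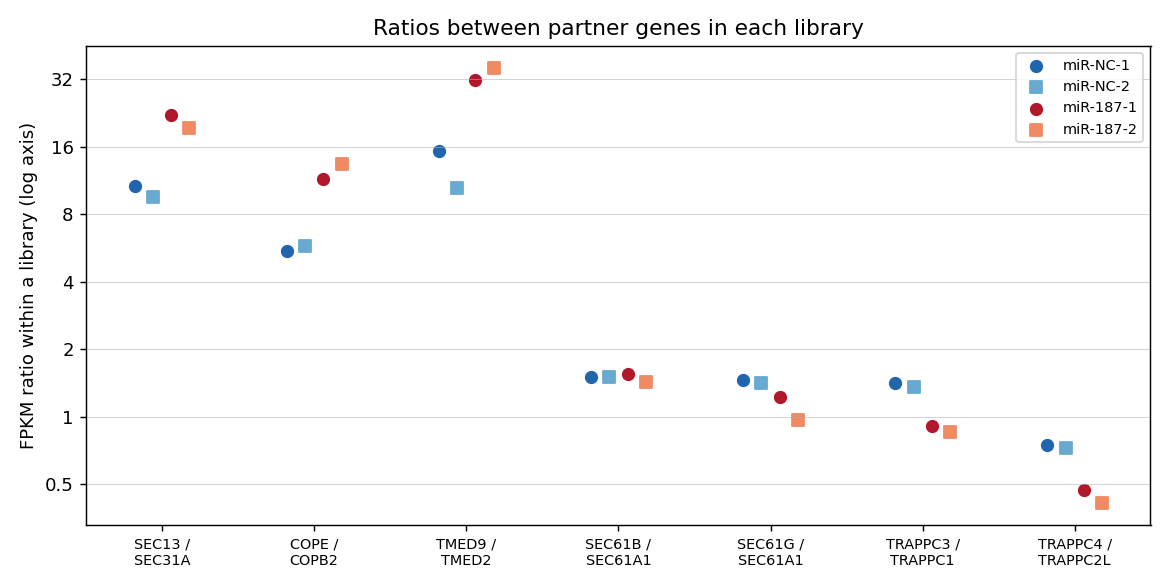
FPKM ratio (log axis) of partner genes within each library, 1 point per library. For SEC13 over SEC31A, COPE over COPB2 and TMED9 over TMED2 both miR-187 points lie above both miR-NC points, for TRAPPC3 over TRAPPC1, TRAPPC4 over TRAPPC2L and SEC61G over SEC61A1 they lie below, and for SEC61B over SEC61A1 they overlap.

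Another 87 genes of the same route were listed for their roles. They held regulators of coats and ARFs, Rab GTPases, tethers, golgins, targeting and translocation factors, further cargo receptors, and further SNAREs with their cofactors. Of these, 74 were tested, none was higher as deposited (none at an unadjusted p under 0.05 in limma either), and 14 were lower (18.9%, beside 27.3% of all tested genes). COG8 and MIA3 among the 14 reached the level for testing only through the miR-NC libraries. Their place in this count is no support for a difference. The 14 became 25 without miR-NC-1, 6 without miR-NC-2, 8 without miR-187-1 and 3 without miR-187-2. Their median log2 fold change was -0.30 as deposited and 0.12 after scaling. After scaling 3 were higher (4.05%), namely ERGIC3, SEC11A and USE1, and 2 were lower, CNIH1 and RAB1A, beside 4.67% and 3.70% of all tested genes. None of these 5 calls was kept after scaling without miR-NC-2, and without miR-187-1 the counts were 6 higher and 3 lower.

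CNIH1, a cornichon receptor that recruits membrane cargo to COPII, measured 43.4 and 62.7 FPKM in miR-NC cells against 19.1 and 14.5 FPKM in miR-187 cells. It was lower as deposited by a log2 fold change of -1.59 ± 0.20 (adjusted p = 0.000240) and after scaling (adjusted p = 0.0160). RAB1A, the Rab that TRAPP complexes switch on at the early secretory pathway, measured 47.7 and 55.9 FPKM in miR-NC cells against 27.1 and 26.4 FPKM in miR-187 cells. It was lower by a log2 fold change of -0.92 ± 0.15 (adjusted p = 0.00130) as deposited and after scaling (adjusted p = 0.0446). RPN1, a subunit of the oligosaccharyltransferase beside the translocon, measured 66.0 and 80.2 FPKM in miR-NC cells against 39.6 and 40.2 FPKM in miR-187 cells, and was lower as deposited (log2 fold change -0.85 ± 0.14, adjusted p = 0.00164) but not after scaling (adjusted p = 0.0658). CNIH1, RAB1A and RPN1 were the 3 of the 14 that passed with each library left out as deposited.

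The 11 others passed as deposited and not after scaling, and each lost its call or was no longer tested without at least 1 library. In the group of targeting and translocation, 4 of 21 were lower: besides RPN1, these were SRP68, a protein of the signal recognition particle (log2 fold change -1.07, adjusted p = 0.0107), and both subunits of its receptor, SRPRA (-0.74, adjusted p = 0.0314) and SRPRB (-0.54, adjusted p = 0.0209). Of 19 tested cargo receptors 4 were lower, including CNIH4 (-0.81, adjusted p = 0.0314), the p24 gene TMED1 (-0.57, adjusted p = 0.00981) and the membrane protein escort BCAP31 (-0.30, adjusted p = 0.0424). Of 13 genes for SNAREs and their cofactors 3 were lower: the SNARE genes GOSR1 (-0.86, adjusted p = 0.00967) and SEC22C (-0.71, adjusted p = 0.0415), and SCFD1, a cofactor that binds STX5 (-0.98, adjusted p = 0.00991). Of 14 Rab and tether genes 2 were lower, RAB1A and the tether subunit COG8 (-0.97, adjusted p = 0.00882), and of 7 coat regulators 1 was, MIA3, the receptor TANGO1 that loads collagen (-0.72, adjusted p = 0.0340). COG8 and MIA3 reached 1 FPKM only in the miR-NC libraries, where they were high, so these calls are no support for a difference. The shares lower were 19.0% in targeting and translocation, 21.1% among cargo receptors, 23.1% among SNAREs and cofactors and 14.3% in each of the other lists. Each lay below the 27.3% of all tested genes. TMED1 was lower on the deposited scale, on which its family member TMED9 was higher.

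Transport genes with longer annotated transcripts had lower FPKM. FPKM divides fragments by a transcript length, so it is not independent of length. The annotated length used here need not be the one behind the deposited values. Across the 55 genes the Spearman correlation between log2(FPKM + 1) and the length of 1 annotated transcript per gene was -0.58, -0.57, -0.55 and -0.56 in the 4 libraries, and across 7122 tested genes with a length it was between -0.43 and -0.42. These are correlations across genes, which share libraries and are not independent replicates. The log2 fold change of the 46 tested genes did not follow length in the same way, with a Spearman correlation of -0.02 as deposited and -0.06 after scaling. Across the 7122 tested genes that correlation was -0.03 as deposited and -0.12 after scaling. The genes higher on both scales were nonetheless short, with 1473 bases for TMED9, 1425 bases for SEC13 and 1141 bases for COPE. They lay among the 1781 shortest tested genes, of 207 to 1740 bases, of which 2.41% were higher and 37.5% lower as deposited. Of the 13 transport genes of that length 3 were higher and 4 were lower.

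**Figure D5:**
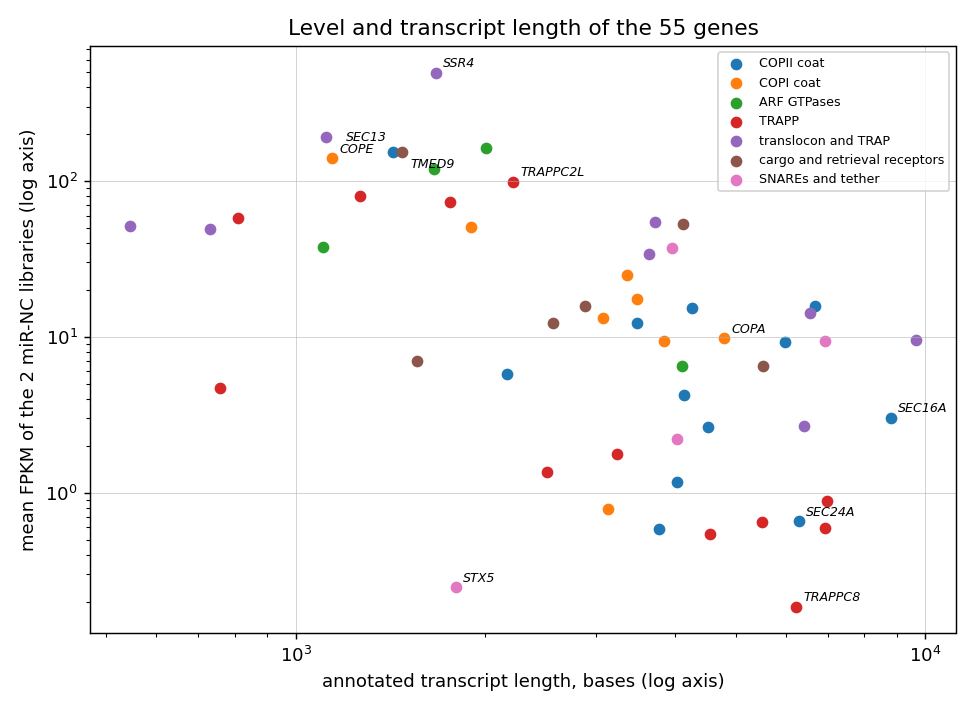
Mean FPKM of the 2 miR-NC libraries (log axis) against the length of an annotated transcript in bases (log axis) for each of the 55 transport genes, coloured by functional group. Short genes such as COPE, SEC13 and TMED9 lie above 100 FPKM, and long ones such as SEC16A and TRAPPC8 lie below 10 FPKM.

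A feature that the choice by name did not use is the promoter. Secretory genes are known targets of the unfolded protein response, whose factors XBP1 and ATF6 bind elements with a TGACGTGG core. In RefSeq promoters (GRCh38.p14, 250 bases before to 50 after a start), matched for 48 of the 55 genes, TGACGTGG on either strand was found in 11 (22.9%), where 0.927% of 27305 genes and 1.30% of 5912 tested protein-coding genes held it. The longer ER stress response element (ERSE), in contrast, was found in none of the 48 and in 0.0920% of all genes, and TGACGTCA, the cyclic AMP response element, in TRAPPC1 alone, beside 2.25% of all genes. TGACGTGG overlaps the other motifs in part, sharing its first letters with the cyclic AMP element and its last ones, read on the other strand, with the ERSE. The matches of members that were lower as deposited, and of COPA, are shown because they let the promoters be set beside the fold changes; each is written along the gene's own strand with the match in capitals.
ARF1 (chr1:228082692-228082699, plus strand): ggcgcTGACGTGGccgcc
COPB2 (chr3:139389836-139389843, minus strand): cggcaCCACGTCAcggcc
COPB2, nearer the start (chr3:139389643-139389650, minus strand): aagttCCACGTCAgtcag
SEC62 (chr3:169966790-169966797, plus strand): tcgctCCACGTCAgaggg
SEC16A (chr9:136484718-136484725, minus strand): tggtgCCACGTCAgccgg
COPA (chr1:160343238-160343245, minus strand): gtcgcTGACGTGGaggcg
The other genes with a match were COPB1, SSR3, SSR4, SEC23A, SEC24A and STX5. The 9 tested genes with the letters had a median log2 fold change of -0.46, with 4 lower and none higher as deposited and none in either direction after scaling. The 33 tested genes with a promoter and without the letters had a median of -0.36, with 8 lower and 3 higher as deposited and 5 higher after scaling. The 3 higher as deposited included TRAPPC5. That gene reached the level for testing only through the miR-187 libraries, so its place in this count is no support for a difference. Of all tested genes, 27.3% were lower and 1.49% higher as deposited, and 3.70% and 4.67% after scaling. TMED9, SEC13 and COPE were not among the 11, but not all of them had a promoter that could be searched. These counts are small and carry no test, and a match is not a bound site.

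The 9 genes below the filter were SEC24A, SEC24B, SEC24D, COPG2, TRAPPC8, TRAPPC9, TRAPPC10, TRAPPC11 and STX5. Their highest value was 1.53 FPKM, for SEC24D in miR-NC-2, and the rest of their values lay at or below 0.964 FPKM. Their levels are given as values only. An annotated gene shared exon positions with 33 of the 55 genes, and for 14 of these it reached 1 FPKM in a library. Of 20 pseudogenes named after a transport gene, none exceeded 0.287 FPKM, and how reads were divided between such copies was not tested.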

How the data were processed

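The 4 libraries were paired-end mRNA libraries from EA.hy926 cells, grouped by title. The authors deposited one FPKM value per gene and library, and the submitters' processing notes name HISAT2, StringTie, DESeq2 and the build hg19, without versions. FPKM is relative to the mapped fragments of each library, so abundant genes that take a larger share lower the values of the rest. Read counts were not used, and steps of single reads were not clear in the low values, where 2.38% to 2.88% of values were shared with another gene. The depth is therefore unknown, and no counting interval is given.

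Of 62443 gene identifiers, 58611 were matched to symbols, with pseudoautosomal copies on chromosome Y left out. A gene was tested when 2 or more libraries reached 1 FPKM. The test was limma 3.58.1 (R 4.3.3) on log2(FPKM + 1) values (linear model on group, moderated variances with an intensity trend, two-sided, Benjamini-Hochberg adjustment over all tested genes, threshold 0.05), with 2 residual and 10.9 prior degrees of freedom, checked on simulated data. Such fold changes understate those of low genes. With 2 libraries a group the smallest exact permutation p is 0.33, so that test was left out. Median-of-ratios factors were 1.08 and 1.31 (miR-NC) and 0.862 and 0.835 (miR-187). Other alternatives were a pseudocount of 0.1, no filter, a filter of 5 FPKM, quantile normalization, TPM, a replicate block and each library left out; leaving out libraries after scaling was chosen after seeing the data.

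The genes, lists and tests were chosen with earlier results of these data known. Values per library are given for every transport gene that passed as deposited or after scaling. Other genes of the route are named when they passed and were among the 4 with the smallest adjusted p in their list, with values per library for those that passed as deposited with each library left out. The genes higher only after scaling are named besides. SAR1B and values of further genes were added after they were seen. The 3′ UTRs, transcript lengths (1 transcript per gene, by annotation rank and then length) and positions come from GENCODE 29 (GRCh38) and promoters from RefSeq, neither being the build of the deposited values, and no coordinate was converted.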

Additional observations from a re-analysis of the deposited data

How the results depend on the processing

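Depth is unknown, a group holds 2 libraries, and most lower calls were lost with median-of-ratios scaling or quantile normalization. The cause of this loss was not tested. As deposited, 122 genes were higher and 2236 lower. Without a filter (25001 genes tested) limma called none in either direction (351 higher and 3838 lower at an unadjusted p under 0.05) and none of the transport genes (4 higher and 16 lower unadjusted) or other genes of the route, which set every count of a functional group to 0. Scaling by median of ratios gave 383 higher and 303 lower genes and quantile normalization 293 and 319. Lower transport genes numbered 0 with either (3 and 7 at an unadjusted p), as did lower genes of every functional group. The median log2 fold change of transport genes became 0.0158 and 0.0223. The higher COPI genes numbered 2 after median-of-ratios scaling, the higher receptors 2 under both scalings and a filter of 5 FPKM, the higher TRAPP genes 0 with quantile normalization or that filter, and the lower COPII genes 0 with that filter. Other genes of the route had 3 higher and 2 lower by median of ratios and 1 and 3 by quantile. A pseudocount of 0.1 ended the call of TRAPPC6B (adjusted p = 0.0601). TPM changed no call of the 20 transport genes that passed as deposited or after scaling. With TPM, lower transport genes numbered 15 in place of 13, and those of the translocon and TRAP 6 in place of 4. The filter of 5 FPKM also gave 6 lower genes of the translocon and TRAP.

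With a library left out, an arm of 1 library is assumed to vary like the others. All genes then ranged from 72 to 119 higher and 822 to 2719 lower, transport genes from 1 to 3 higher and 6 to 19 lower, and other genes of the route from 3 to 25 lower. By group, higher COPII and COPI genes ranged from 0 to 1 each and TRAPP genes were at 0. Lower genes ranged from 0 to 3 in COPII, 0 to 4 in COPI, 1 to 3 among ARFs, 2 to 3 in TRAPP, 2 to 4 in the translocon and TRAP, 0 to 1 among receptors and 0 to 2 among SNAREs. The median of transport genes ranged from -0.5377 to -0.2355. After median-of-ratios scaling, leaving out miR-NC replicate 1, miR-NC replicate 2, miR-187 replicate 1 and miR-187 replicate 2 gave 289, 64, 592 and 251 higher genes, 62, 25, 596 and 291 lower genes, 4, 3, 9 and 4 higher transport genes, 0, 0, 2 and 0 lower ones, 3, 0, 6 and 2 higher and 1, 0, 3 and 1 lower other genes of the route, and medians of -0.021, 0.0834, 0.0028 and 0.0439. In these fits the higher genes per group were 1 in COPII, 1 to 2 in COPI and among receptors, and 0 to 2 in TRAPP and in the translocon and TRAP, and the lower genes were 0 to 1 in TRAPP and in the translocon and TRAP and 0 in the other groups.

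COPZ1 turned from -0.01 to 0.4722 with median-of-ratios scaling and 0.3523 with quantile normalization, ranged from -0.179 to 0.1634 with a library left out (0.0094 without miR-187 replicate 1), and came to 0.3924, 0.4784, 0.5208 and 0.4397 with both. Values near 0 also turned for TRAPPC2L (-0.0019 to 0.1496 with a library left out) and, after scaling, for ARF4 (0.0312 with miR-NC replicate 1 left out, 0.0273 for miR-187 replicate 2), SEC61B (0.032 without miR-187 replicate 2) and SEC61A1 (0.0032 without miR-NC replicate 1). The cause of these changes was not tested. Replicate numbers did not pair the libraries (correlation of deviations -0.06 over 8196 genes). A replicate block gave 142 higher and 2491 lower genes and changed no call of the 20 transport genes that passed as deposited or after scaling. Lower transport genes then numbered 14, with 5 in the translocon and TRAP.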
